A study of Caenorhabditis elegans with 6 samples.

Results

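The PAR polarity genes of Caenorhabditis elegans were followed here as 9 named genes: par-3, par-6, pkc-3 and cdc-42, whose proteins work at the anterior cortex of the zygote, par-1, par-2 and lgl-1, whose proteins work at the posterior cortex, par-5, which codes for a 14-3-3 protein, and nmy-2, which codes for the non-muscle myosin heavy chain of the cortex. They were taken from the table of all genes by their sequence names, 9 of 46659 rows, and all 9 were among the 17365 genes with enough counts to be tested. RNA depleted of ribosomal RNA was sequenced from embryos of the dot-1.1(knu339); ced-3(n1286) genotype, called double mutants below, and of the ced-3(n1286) genotype, called single mutants below, with 3 biological replicates each. Both genotypes carry the ced-3 allele, in the gene of the main cell death caspase, and they differ by the dot-1.1 allele. DOT-1.1 is a worm relative of DOT1L, a methyltransferase of histone H3. The worms were kept at 20 °C on E. coli OP50, and eggs were freed from egg-laying adults with alkaline hypochlorite, so each library holds a mixture of embryonic stages. The labels do not say what the knu339 allele does to its gene.

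The PAR proteins divide the cortex of the worm zygote into an anterior and a posterior domain before the first cell division. PAR-3, PAR-6 and the atypical protein kinase C PKC-3 form the anterior group together with the GTPase CDC-42, and PKC-3 keeps the posterior proteins off the anterior cortex by phosphorylating them. PAR-2 and the kinase PAR-1 hold the posterior cortex, LGL-1 acts beside PAR-2, PAR-5 is needed to keep the domains apart, and contraction of the actomyosin cortex by NMY-2 carries the anterior proteins forward. Several of these genes act again later, when epithelia form.

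Library totals ran from 66316445 to 75279479 counts in the double mutants and from 68832040 to 77957224 counts in the single mutants. The transcript of dot-1.1 was at 28.6 to 62.6 CPM (a count after scaling for library total and for composition) in the double mutants and at 34.8 to 66.9 CPM in the single mutants. The groups overlapped, and the log2 fold change was -0.21 ± 0.33 SE (95% interval -0.97 to 0.54, adjusted p = 0.806, edgeR on genotype only). In 3 of 3 pairs of equal replicate number the double mutant had the lower level. With the replicate number as a block the log2 fold change was -0.24 ± 0.093 SE and was not called (95% interval -0.45 to -0.028, adjusted p = 0.163, edgeR). Since the effect of the allele on the transcript is not stated, this level does not check the genotype labels. Markers of embryo stage differed between libraries. The summed level of 17 genes of differentiated tissues, mostly muscle genes, was 5688 to 9731 CPM in the double mutants and 4447 to 5705 CPM in the single mutants. The summed level of the 12 early zygotic genes found in the table was 229 to 510 CPM in the double mutants and 312 to 617 CPM in the single mutants, and that of 10 maternal transcripts was 429 to 858 CPM in the double mutants and 566 to 838 CPM in the single mutants. Single mutant replicate 2 stood lowest of all 6 libraries for the differentiated tissues and highest for the early zygotic genes. The 7 genes of adult intestine and cuticle summed to 3.65 to 4.15 CPM in the double mutants and 1.33 to 2.26 CPM in the single mutants, with 1 of them, col-19, at 0 counts in the single mutants. The part of embryo stage in the differences below was not tested, and in bulk RNA fewer cells of a type and less RNA per cell cannot be told apart.

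None of the 9 PAR polarity genes was called different between double and single mutants in edgeR at an adjusted p under 0.05. The same fit called 0.0806% of all genes tested. At an unadjusted p under 0.05 the count among the 9 genes was 0, against 12.1% of all genes, and DESeq2 called 0 of the 9, with 0 at an unadjusted p under 0.05, against 1.33% and 6.98% of the genes to which it gave a p. A second fit with the replicate number as a block, in which 4.01% of all genes were called, 2.57% higher and 1.45% lower in the double mutants, also called 0 of the 9, and 1 of them, cdc-42, had an unadjusted p under 0.05, against 24.5% of all genes. The fold changes were small: the 9 log2 fold changes, double over single mutants, ran from -0.099 to 0.27, with 7 above 0 and a median of 0.083, where 47.9% of all genes lay above 0 with a median of -0.016. The 95% interval of the fold stayed within 2-fold in either direction for 9 of 9 genes and within 1.5-fold for 7 of 9, the exceptions being par-1 and par-2, and with the block within 1.5-fold for 9 of 9. Of the 8477 genes with a mean of at least 10 CPM, 90.5% had an interval within 2-fold and 59.8% one within 1.5-fold, or 77.2% with the block.

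**Figure D1:**
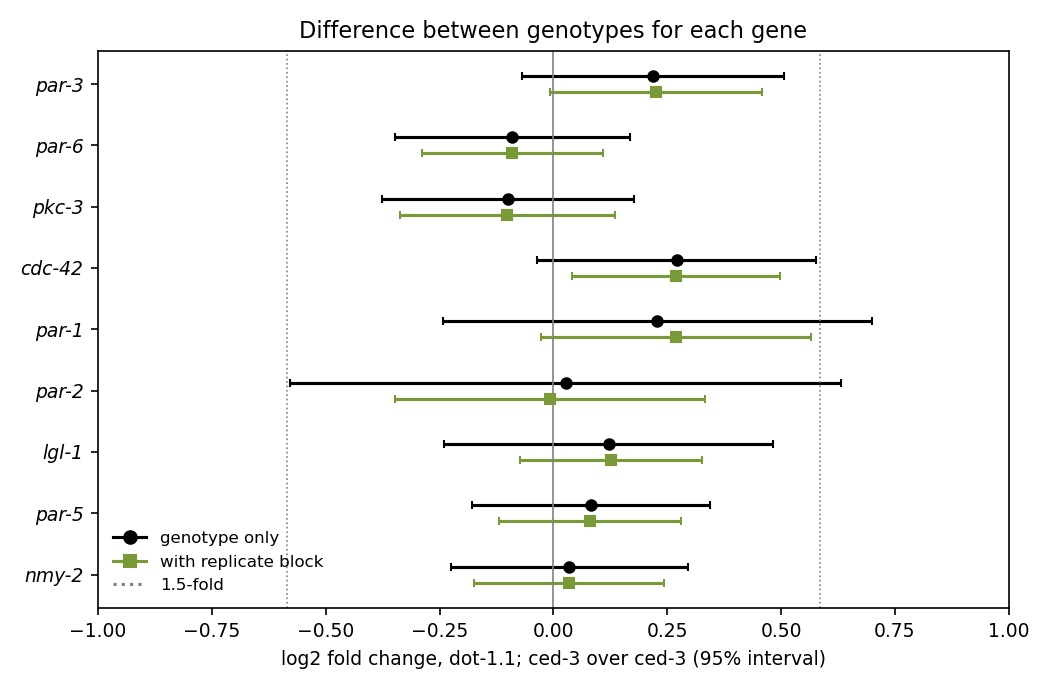
Log2 fold change of double over single mutants (x axis) for each PAR polarity gene (rows), with 95% intervals from edgeR, fitted on genotype only (black circles) or with a replicate block (green squares). Dotted lines mark 1.5-fold. Every interval of the fit on genotype only includes 0, and those of par-1 and par-2 are the widest.

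The levels of the 9 genes were compared per kilobase of exon. The gene par-5 (M117.2, chromosome IV, 11820506 to 11821924, build WBcel235) stood far above the rest, at 450.1 ± 25 CPM per kb (SD over the 6 libraries), which placed it above 98.9% of all genes tested. The myosin gene nmy-2 averaged 72.6 ± 3.66 CPM per kb and cdc-42 averaged 72.5 ± 10.6 CPM per kb, and each was the higher of the pair in 3 of 6 libraries. Then came par-3 at 62.6 ± 6.97, par-1 at 52.8 ± 10.3 and pkc-3 at 47.2 ± 4.04 CPM per kb. These neighbours overlapped in their ranges, although cdc-42 was above par-3 and par-3 above par-1 in 6 of 6 libraries, and par-1 was above pkc-3 in 5 of 6. The ranges of pkc-3 and the next gene, par-6, did not overlap, but par-1 reached down to 32.6 CPM per kb in single mutant replicate 2, within the range of par-6. The level of par-6 was 32.4 ± 1.66 CPM per kb and that of lgl-1 was 31.4 ± 4.67 CPM per kb, with each the higher in 3 of 6 libraries. Lowest was par-2, at 4.398 ± 1.07 CPM per kb, above 41.4% of all genes tested, and its highest library, at 5.79 CPM per kb, was below the lowest library of any other PAR polarity gene. The exon length used joins the exons of all annotated transcripts, 18 for par-1 and 16 for par-3, and so can lower the level of a gene whose embryos use a short form.

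**Figure D2:**
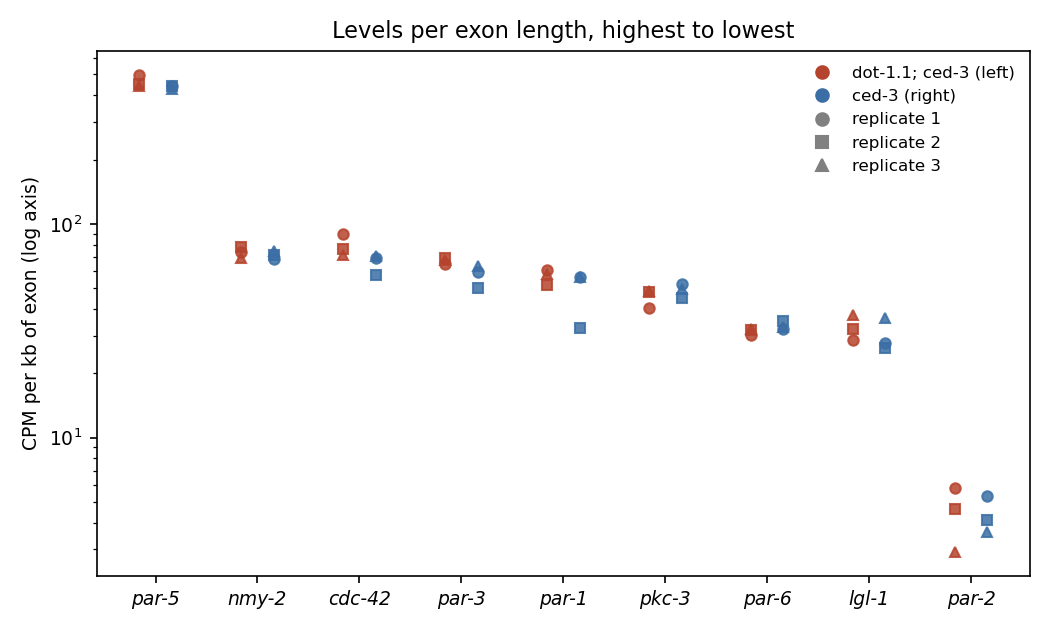
Level in CPM per kb of exon (y axis, log scale) of each gene (x axis, ordered by its mean), with double mutants left of single mutants and 1 point for each library. The points of par-5 lie between 427 and 499, those of par-2 between 2.92 and 5.79, and those of the other genes between 26.3 and 90.1.

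In the anterior group, the scaffold gene par-3 (F54E7.3, chromosome III, 5664233 to 5676795), whose protein recruits PAR-6 and PKC-3, had 347.2, 370.9 and 362.3 CPM in the double mutants and 319.3, 268.0 and 341.5 CPM in the single mutants. All 3 double mutant libraries lay above all 3 single mutant libraries, and single mutant replicate 2 was the lowest. The mean was 360.2 ± 12.04 CPM against 309.6 ± 37.7 CPM (SD, n = 3 each), a log2 fold change of 0.22 ± 0.13 SE with an adjusted p of 0.512 (edgeR; 95% interval of the fold 0.953 to 1.42). Such a separation of the groups was found for 2 of the 9 genes in the direction of higher double mutants, par-3 and cdc-42, against 10.6% of all genes, and for 1 in the other direction, par-6, against 7.91%. An exon of par-3 shares 184 bp with F54E7.9 on the other strand, whose counts summed to 6.36% of those of par-3. The level of F54E7.9 was 18.3 ± 3.15 CPM in the double mutants and 24.3 ± 2.83 CPM in the single mutants (SD, n = 3 each; adjusted p = 0.410, edgeR).

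PAR-6 is the adaptor that joins PKC-3 to CDC-42. Its gene par-6 (T26E3.3, chromosome I, 12669380 to 12674449) had 42.6, 45.2 and 45.3 CPM in the double mutants and 45.5, 49.9 and 46.4 CPM in the single mutants. The groups did not overlap, but the highest double mutant library, at 45.3 CPM, and the lowest single mutant library, at 45.5 CPM, were close. Its log2 fold change was -0.090 ± 0.11 SE (adjusted p = 0.761, edgeR; 95% interval of the fold 0.785 to 1.12). The gene of the kinase, pkc-3 (F09E5.1, chromosome II, 5380027 to 5384169), had 94.3, 111.4 and 113.1 CPM in the double mutants and 121.3, 104.7 and 115.6 CPM in the single mutants. These groups overlapped, with double mutant replicate 1 the lowest of the 6 libraries. The difference was small, at a log2 fold change of -0.099 ± 0.12 SE (adjusted p = 0.755, edgeR; 95% interval of the fold 0.770 to 1.13), and the sign differed between the pairs of equal replicate number, with 2 lower and 1 higher.

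The GTPase gene cdc-42 (R07G3.1, chromosome II, 7616452 to 7618245) had the largest difference of the 9 genes without the block. It had 121.3, 102.4 and 96.5 CPM in the double mutants and 92.6, 77.8 and 94.9 CPM in the single mutants. The groups did not overlap, with double mutant replicate 1 the highest library and single mutant replicate 2 the lowest. The mean was 106.7 ± 12.9 CPM against 88.5 ± 9.31 CPM (SD, n = 3 each), 1.21-fold (95% interval 0.976 to 1.49) with an adjusted p of 0.459 in edgeR. With the block the fold was also 1.21, with an interval of 1.03 to 1.41 that left out 1 but an adjusted p of 0.1501. The difference was 0.39, 0.40 and 0.023 on the log2 scale in the pairs numbered 1, 2 and 3. Its exons share 8 bp with R07G3.8, a protein-coding gene on the other strand, whose counts summed to 41.1% of those of cdc-42. R07G3.8 had 2075, 2643 and 2422 counts in the double mutants and 2881, 3644 and 3651 counts in the single mutants. Its groups did not overlap, and in the blocked fit it was lower in the double mutants, at a log2 fold change of -0.49 ± 0.10 SE and an adjusted p of 0.0429 (edgeR), while the fit without it gave an adjusted p of 0.222.

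**Figure D3:**
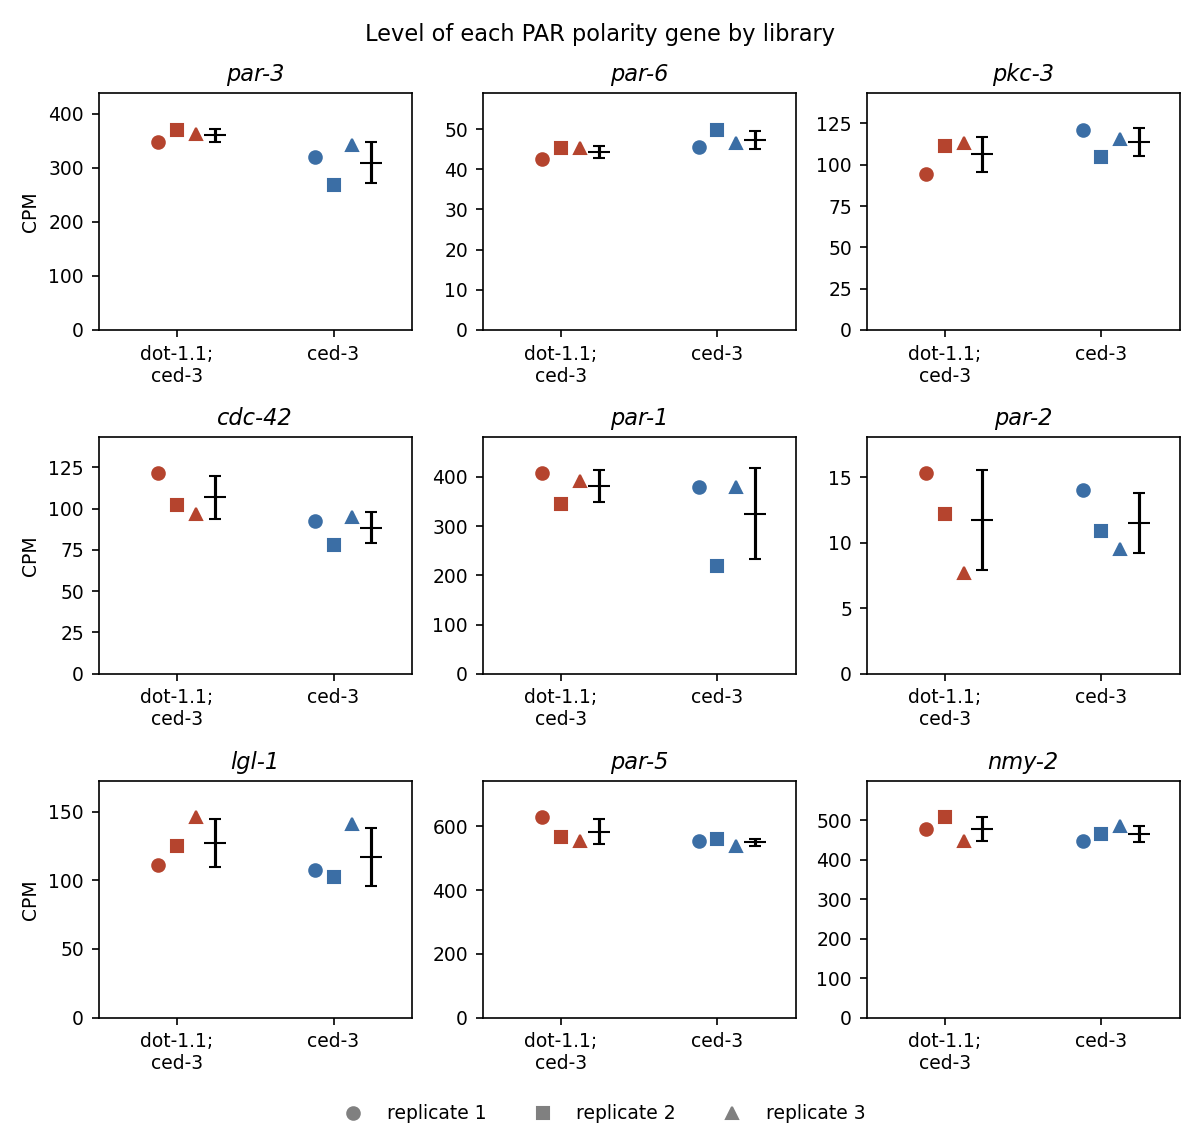
CPM (y axis, from 0) of each PAR polarity gene by library, with double mutants left and single mutants right in each panel, 1 point for each library and the mean with its SD (n = 3) as a bar. Single mutant replicate 2 stands apart for par-1, at 218 CPM, and par-2 differs more between replicate numbers than between genotypes.

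In the posterior group, par-1 (H39E23.1, chromosome V, 14112033 to 14145367) codes for a kinase of the MARK family that sets up the asymmetry of cytoplasmic factors. It had 406.9, 344.8 and 392.1 CPM in the double mutants and 378.7, 218.3 and 379.1 CPM in the single mutants. The groups overlapped, and single mutant replicate 2 lay far below the other 5 libraries. With all libraries its log2 fold change was 0.23 ± 0.21 SE (adjusted p = 0.666, edgeR; 95% interval of the fold 0.846 to 1.62). Without single mutant replicate 2 it was 0.013, so the difference of par-1 rests on that library. The same library was also the lowest of the 6 for par-3, cdc-42 and lgl-1 and the highest for par-6. It was, as given above, the lowest for the differentiated tissues and the highest for early zygotic genes. Double mutant replicate 1 was the highest for the differentiated tissues and the lowest for the maternal transcripts. That library was also the highest for par-1, par-2, par-5 and cdc-42 and the lowest for par-6 and pkc-3. A link of these levels to embryo stage was not tested.

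The gene par-2 (F58B6.3, chromosome III, 1081401 to 1095082), which codes for the RING finger protein that marks the posterior domain, had the lowest counts of the group, 599 to 972 in the double mutants and 695 to 949 in the single mutants. Its level was 15.3, 12.2 and 7.70 CPM in the double mutants and 14.05, 10.9 and 9.53 CPM in the single mutants. In both genotypes replicate 1 was the highest library and replicate 3 the lowest, and the groups overlapped almost fully. The log2 fold change was 0.027 ± 0.27 SE (adjusted p = 0.976, edgeR; 95% interval of the fold 0.670 to 1.55). With the block it was -0.0078 ± 0.15 SE, and its sign was not stable when libraries were left out. Counting error alone was 3.21% to 4.09% of the level in the double mutants and 3.25% to 3.79% in the single mutants, while the highest library was 1.98 times the lowest. The SD of its log2 level over the 6 libraries, 0.36, was the largest of the 9 genes, followed by 0.34 for par-1, and the median was 0.21 over genes with a mean of at least 10 CPM.

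Of all other genes with a mean of at least 10 CPM, the 3 whose log2 levels, centred over the 6 libraries, lay closest to those of par-2 were F53E4.1, W04A8.1 and K03B4.2. Their root mean square difference from par-2 was 0.0827, 0.0996 and 0.110 on the log2 scale over the 6 libraries. F53E4.1 (chromosome V, 15652430 to 15668300) had 27.1, 20.1 and 14.3 CPM in the double mutants and 25.4, 17.3 and 15.6 CPM in the single mutants. It shares the order of its libraries with par-2. Since it was chosen for a profile close to that of par-2, this order is not separate evidence of a link. Among the PAR polarity genes themselves, par-5 came closest to par-2, at 0.292, which was the poorest best match of the 9. The closest match of all was that of par-5 and nmy-2, at 0.0894, and par-3 was the closest partner of cdc-42 (0.126), lgl-1 (0.141) and par-1 (0.195).

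LGL-1, the worm form of the tumour suppressor Lgl, acts with PAR-2 at the posterior cortex. Its gene lgl-1 (F56F10.4, chromosome X, 864097 to 871089) had 111.3, 124.9 and 146.0 CPM in the double mutants and 107.7, 102.4 and 141.3 CPM in the single mutants. Replicate 3 was the highest library in both genotypes, and the groups overlapped. The log2 fold change was 0.12 ± 0.16 SE (adjusted p = 0.770, edgeR; 95% interval of the fold 0.847 to 1.40), with the double mutant higher in 3 of 3 pairs. Across all 9 genes, 6 had the same direction in all 3 pairs, against 47.9% of all genes.

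**Figure D4:**
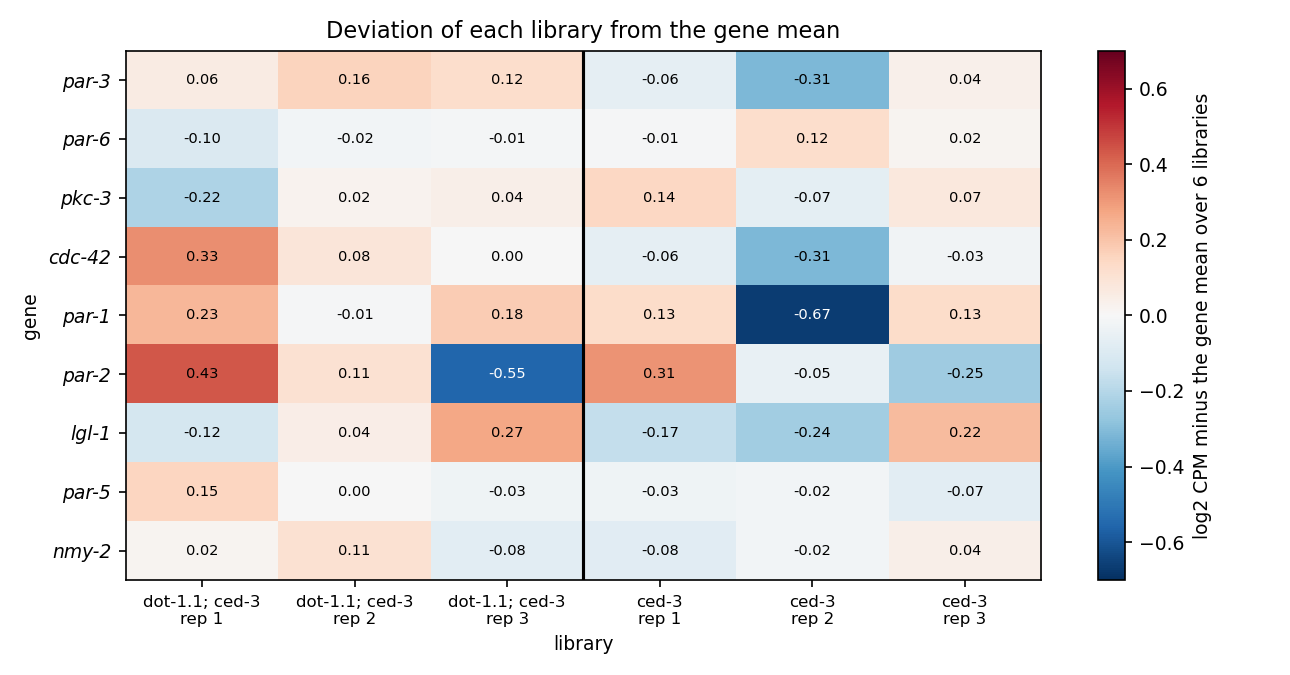
Log2 CPM minus the mean of the gene over the 6 libraries (colour and number) for each gene (rows) in each library (columns), double mutants left. The largest single deviation is -0.67, for par-1 in single mutant replicate 2, and par-2 is at 0.43 and 0.31 in the libraries numbered 1 and at -0.55 and -0.25 in those numbered 3.

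The most abundant gene, par-5, had 628.5, 565.4 and 554.8 CPM in the double mutants and 554.4, 558.8 and 538.2 CPM in the single mutants. The groups overlapped, with double mutant replicate 1 above the other 5 libraries. The log2 fold change was 0.083 ± 0.12 SE (adjusted p = 0.783, edgeR; 95% interval of the fold 0.884 to 1.27). The other 14-3-3 gene of the worm, ftt-2, was at 513.2 ± 51.7 CPM in the double mutants and 486.2 ± 56.2 CPM in the single mutants (SD, n = 3 each), 0.078 ± 0.14 SE higher on the log2 scale (adjusted p = 0.831, edgeR). The proteins of par-5 and ftt-2 are close relatives, and no source used here says how reads that fit both genes were counted.

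The myosin gene nmy-2 (F20G4.3, chromosome I, 7926623 to 7934577), which powers the cortical flow and cytokinesis, had 477.1, 508.3 and 447.3 CPM in the double mutants and 446.8, 465.5 and 485.7 CPM in the single mutants. Its highest library was 1.14 times its lowest, the narrowest range of the 9 genes, and the groups overlapped. The log2 fold change was 0.035 ± 0.12 SE (adjusted p = 0.918, edgeR; 95% interval of the fold 0.855 to 1.23). Its paralogue nmy-1, the other non-muscle myosin heavy chain, was at 1376 ± 115.4 CPM in the double mutants and 1299.7 ± 236.1 CPM in the single mutants (SD, n = 3 each; adjusted p = 0.848, edgeR).

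When the levels per kilobase were summed by domain, the 4 anterior genes reached 225.5, 225.1 and 219.9 CPM per kb in the double mutants and 212.7, 188.0 and 216.7 CPM per kb in the single mutants. The 3 posterior genes reached 95.1, 88.1 and 98.9 CPM per kb in the double mutants and 89.5, 63.0 and 96.5 CPM per kb in the single mutants. The anterior sum was 2.37, 2.55 and 2.22 times the posterior sum in the double mutants and 2.38, 2.98 and 2.25 times it in the single mutants. This ratio overlapped between genotypes, with single mutant replicate 2 above the other 5 libraries.

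The wider polarity network was described through 3 lists of genes. They were chosen with results of these data known, and each count is set beside 0.0806% of all genes called without the block and 4.01% with it. Of 12 genes of kinases and their partner proteins, phosphatase subunits and a 14-3-3 protein, 0 were called in either fit. Of these, 6 lay above 0 and 6 below 0, with a median log2 fold change of -0.022 against -0.016 for all genes. In this list the kinase gene par-4, the worm LKB1, was at 53.9 ± 4.95 CPM in the double mutants and 58.6 ± 5.54 CPM in the single mutants (SD, n = 3 each; log2 fold change -0.12 ± 0.13 SE, adjusted p = 0.713, edgeR). Its most abundant gene, mbk-2, a kinase of the oocyte-to-embryo transition, was at a log2 fold change of 0.13 ± 0.14 SE, and its largest difference was that of the chaperone partner gene cdc-37, at 0.23 ± 0.17 SE.

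Of 16 genes of the actomyosin cortex, 0 were called in either fit, 12 lay above 0 and the median log2 fold change was 0.053. The most abundant was nmy-1, given above, and the largest difference was that of pod-1, a coronin-family gene, at 0.31 ± 0.31 SE. Of 12 genes that act downstream in cytoplasmic asymmetry and spindle position, 0 were called in either fit and the median was -0.033. The dynein heavy chain gene dhc-1 was the most abundant, at a log2 fold change of 0.12 ± 0.16 SE. The largest difference was that of mex-6, one of the zinc finger proteins that carry the polarity of the cortex into the cytoplasm. Its level was 33.9, 58.7 and 31.7 CPM in the double mutants and 61.4, 69.1 and 43.1 CPM in the single mutants, with overlapping groups (log2 fold change -0.48 ± 0.27 SE, adjusted p = 0.497 in edgeR and 0.0602 with the block).

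**Figure D5:**
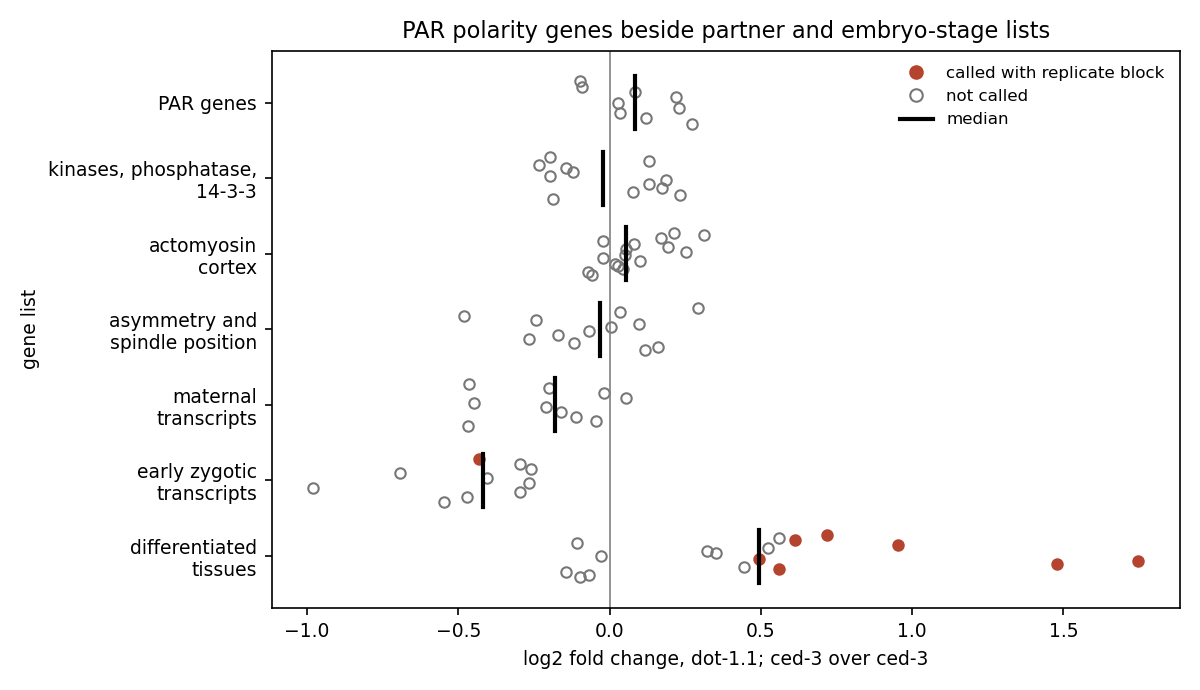
Log2 fold change of double over single mutants (x axis, fit on genotype only) for the PAR polarity genes and for genes of 6 lists (rows), 1 point for each gene tested, with the median of each row as a black bar. Filled points are genes called in the fit with the replicate block; among the PAR polarity genes and their listed partners none is filled.

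The markers of embryo stage were counted in the same way. Over all genes tested, 0.0806% were called without the block, and with it 2.57% were called higher and 1.45% lower. Of 17 genes of differentiated tissues, 0 were called without the block and 7 were called higher with it (myo-1, myo-2, myo-3, unc-89, unc-15, lev-11 and tnt-4, all muscle genes), and the median log2 fold change was 0.49. Of the 17 genes, 12 lay above 0 and 5 below 0. Below 0 were the intestinal genes ges-1 (-0.14) and elt-2 (-0.068) and the epidermal collagen gene dpy-7 (-0.098). The neuronal gene unc-119 (-0.11) and the muscle gene pat-10 (-0.027) were also below 0. Other neuronal genes, rab-3 (0.35) and snt-1 (0.32), lay above 0, with double mutants higher and no overlap of the groups, as for 10.6% of all genes. The groups lay apart in this direction for several muscle genes too, among them myo-1, myo-2, lev-11 and tnt-4, while those of unc-119 overlapped. None of the genes with a value given here was called in either fit. Of 10 early zygotic genes tested, 0 were called without the block and 1 was called lower with it (vet-6), with 10 of 10 below 0 and a median of -0.42. Of 10 maternal transcripts, 0 were called in either fit, with 9 below 0 and a median of -0.18. The corresponding median of the 9 PAR polarity genes was 0.083.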

How the data were processed

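Embryo RNA of 6 libraries was analysed from 1 table of raw counts per gene, deposited by the authors. The tools were HISAT2 2.0.5 and StringTie and the build WBcel235, per the submitters' processing notes. No source used here names the program that counted reads, its strand setting or its rule for reads with several positions. Libraries are strand-specific, per the labels' protocols. Coordinates, exon lengths and overlaps were read from Ensembl 115 for WBcel235, matched by sequence name for 46180 of 46659 rows. Library totals of at least 66316445 counts allow a floor of 3 counts, 0.0385 to 0.0452 CPM, for counting error only.

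The genotypes were compared in R 4.3.3 with edgeR 4.0.16 (filterByExpr, TMM, robust quasi-likelihood test on genotype), two-sided, with Benjamini-Hochberg adjustment over 17365 genes and a threshold of 0.05. CPM carries the TMM factors. Each SE is the log2 fold change divided by the root of F, and each interval is a 95% t interval; the code was tested on simulated data. The numbers of the replicates were taken as pairs from the data alone: the correlation of library deviations from the mean of their genotype was 0.169 to 0.320 within numbers and -0.239 to 0.0587 between them, and the labels name no shared day or culture. Such deviations cancel out within a genotype, so higher values within numbers go with lower values between them. The contrast of these ranges is therefore not independent evidence of pairing. The blocked fit is given where it changes a call or a count, and also for some genes where it does not. Biological replicates are taken from the labels, which name no separate cultures, so p-values measure the spread between these libraries. Replicates of a genotype differed by 98 to 190 times the sampling variance, so none is a copy of another.

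The members and gene lists were chosen with earlier results of these data known. The genes named are the 9 members, par-4, paralogues of members in the lists, the genes closest in profile and every listed gene called in either fit. The most abundant and the most different gene of each partner list are also named (mean of at least 10 CPM for the latter). Of the genes that overlap a member, F54E7.9 and R07G3.8 are named. The others had counts of at most 0.255% of those of their member. Some stage and tissue markers are named outside these rules: ges-1, elt-2, dpy-7, unc-119, pat-10, rab-3, snt-1 and col-19. Alternatives were other scalings, DESeq2 1.42.0, no filter, the block, and leaving out each library or pair. Sequences of the genes were not used here, and 1 list of partner genes is not reported here.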

Additional observations from a re-analysis of the deposited data

How the results depend on the processing

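The count of PAR polarity genes called was 0 under all 14 alternatives, with the lowest adjusted p of any of them at 0.1501, for cdc-42 with the replicate block. The count over all genes was far less stable, 14 in the main fit: it was 26 with library totals only, 466 with DESeq2, 4 with every gene of at least 1 count and 697 with the replicate block, ran from 1 to 43 when a library was left out, and was 11, 2476 and 181 without pairs 1, 2 and 3 in the blocked fit. The directions of par-1, par-3, par-5, par-6, cdc-42 and lgl-1 were the same under all 14. The direction of par-2 turned to a log2 fold change of -0.0078 with the replicate block, and ranged from -0.22 to 0.27 when a library was left out and was -0.085, -0.091 and 0.16 without pairs 1, 2 and 3 in the blocked fit. In the same blocked fits, pkc-3 was at 0.018, -0.20 and -0.11 and nmy-2 at -0.0074, -0.013 and 0.14. Leaving out 1 library gave 0.013 to 0.36 for par-1, 0.16 to 0.35 for cdc-42, 0.018 to 0.28 for lgl-1, 0.13 to 0.29 for par-3, 0.020 to 0.14 for par-5, 0.019 to 0.090 for nmy-2, -0.15 to -0.027 for pkc-3 and -0.11 to -0.048 for par-6. The cause of these shifts was not tested. Counts were lowest for par-2, at 599 to 972 a library. Its counting error was 3.21% to 4.09%, while its highest library was 1.98 times its lowest.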

Other observations

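Within the anterior complex, the ratios between genes were looked at after their values were seen. The level of pkc-3 per kilobase was 0.624, 0.690 and 0.716 of that of par-3 in the double mutants and 0.872, 0.897 and 0.777 of it in the single mutants. These groups did not overlap, as those of par-3 itself did not. Nor did those of par-6 over par-3, at 0.461 to 0.473 in the double mutants and 0.515 to 0.704 in the single mutants. This separation had to follow, since par-6 lay apart as lower and par-3 as higher in the double mutants. The ratio of cdc-42 to pkc-3 was apart as well, at 1.48 to 2.23 in the double mutants and 1.29 to 1.42 in the single mutants. The groups of cdc-42 itself also lay apart, in the same direction. How often ratios of other genes lie apart was not counted. The ratio of par-6 to pkc-3 did overlap, at 0.746, 0.669 and 0.661 in the double mutants and 0.619, 0.786 and 0.663 in the single mutants. For par-1 over par-3 the groups overlapped too, at 0.743 to 0.937 in the double mutants and 0.651 to 0.948 in the single mutants. These ratios were not tested. Single mutant replicate 2 gave the highest value of pkc-3 over par-3, of par-6 over par-3 and of par-6 over pkc-3. It gave the lowest value of par-1 over par-3 and of cdc-42 over pkc-3.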
